A study of Mus musculus with 2 samples.

Results

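The genes described here are 10 of the so-called disallowed genes, which pancreatic beta cells keep at very low RNA levels although most other cells use them. They are Ldha, Slc16a1, Hk1, Hk2, Acot7, Oat, Igfbp4, Maf, Arhgdib and Lmo4, taken by symbol from the 31053 genes of the count matrices, and each matched 1 row. Islets of wild-type C57BL/6J female mice were dissociated with trypsin and sequenced as single cells with the 10x Chromium 3′ v3.1 chemistry. This counts RNA molecules at the 3′ end of polyadenylated transcripts by unique molecular identifiers (UMIs). Mice entered the study at 9 weeks of age and either delivered 3 consecutive litters, with islets taken 3 weeks after the last delivery (multipara), or were age-matched virgins (virgin). The study asked how islet cells differ after multiparity. Each group was 1 library, the labels do not give how many mice it holds, and they name no other treatment and no transgene. All statements therefore compare 2 libraries, and no difference between groups has a replicate check.

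Beta cells take up glucose in proportion to its concentration and oxidise it in mitochondria, and the ATP that results closes potassium channels and releases insulin. Disallowed genes encode proteins that would bypass this coupling, for example by turning pyruvate into lactate, by letting pyruvate or lactate enter from the blood, or by trapping glucose when little of it is present. Their silence is regarded as part of mature beta cell identity, and some are known to be derepressed in diabetic islets.

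Cells were sorted into classes by their own RNA. A cell was called beta-like when Ins1 and Ins2 made up at least 20% of its UMIs, alpha-like or delta-like when Gcg or Sst reached 5%, and endothelial-like, immune-like or mesenchymal-like when at least 3 markers of that class were detected. After the study's filter and removal of doublets, the virgin and multipara libraries held 1821 and 1585 beta-like cells of 4312 and 3356 cells in all. They held 1104 and 706 alpha-like, 364 and 320 delta-like, 261 and 237 endothelial-like, 411 and 191 immune-like, and 112 and 58 mesenchymal-like cells. Mafa, a beta cell transcription factor that the gates did not use, stood at 825 and 896 UMIs per 1000000 in beta-like cells and at most 25.6 elsewhere among these classes. The libraries shared 7 barcodes, and 974 virgin and 1550 multipara barcodes had failed the mitochondrial limit of 10%.

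All levels below are the UMIs of a gene, summed over the cells of a class in a library, per 1000000 UMIs other than those of 7 islet hormone genes. The hormones were left out because they took 61.4% and 62.8% of the UMIs of beta-like cells but 1.35% and 2.92% of those of endothelial-like cells. Pairs of values are given as virgin and multipara, and intervals are 95% intervals that cover counting error only. Because 3′ libraries capture genes with unequal efficiency, a level is compared between classes and not between genes. RNA freed from broken cells also enters droplets, so the level of other classes' own markers in beta-like cells was used as a yardstick. In beta-like cells the 8 endothelial markers summed to 0.0653% and 0.0861% of their level in endothelial-like cells, and the 8 immune markers to 0.386% and 0.220% of that in immune-like cells. Gcg stood at 0.941% and 0.764% of its level in alpha-like cells, and Sst at 1.71% and 1.03% of its level in delta-like cells. All 8 endothelial and all 8 immune markers had at least 1 UMI in beta-like cells of both libraries. Each yardstick covers 1 class, and the joint carry-over of a gene present in several classes was not tested.

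The sequences before the start sites of 4 members are shown because they differ in a short motif known from the metabolic genes among them. Each is the stretch of 250 bases upstream of a RefSeq start site on GRCm38.p6, written 5′ to 3′ along the gene's strand. Capitals mark ACGTG on either strand, the core letters bound by hypoxia-inducible factors, which are known to drive Ldha in many tissues.
Ldha, chr7:46845554-46845803, plus strand: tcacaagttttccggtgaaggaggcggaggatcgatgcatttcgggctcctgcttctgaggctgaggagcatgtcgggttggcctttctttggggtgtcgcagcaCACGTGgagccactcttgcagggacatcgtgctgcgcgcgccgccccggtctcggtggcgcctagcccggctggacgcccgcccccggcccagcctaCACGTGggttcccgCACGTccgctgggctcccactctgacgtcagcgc
Slc16a1, chr3:104638414-104638663, plus strand: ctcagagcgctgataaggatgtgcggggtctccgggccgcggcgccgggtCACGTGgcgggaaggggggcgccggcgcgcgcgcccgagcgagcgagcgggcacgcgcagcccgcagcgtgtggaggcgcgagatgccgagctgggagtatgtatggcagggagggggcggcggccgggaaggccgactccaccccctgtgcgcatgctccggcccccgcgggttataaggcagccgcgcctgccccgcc
Hk2, chr6:82774455-82774704, minus strand: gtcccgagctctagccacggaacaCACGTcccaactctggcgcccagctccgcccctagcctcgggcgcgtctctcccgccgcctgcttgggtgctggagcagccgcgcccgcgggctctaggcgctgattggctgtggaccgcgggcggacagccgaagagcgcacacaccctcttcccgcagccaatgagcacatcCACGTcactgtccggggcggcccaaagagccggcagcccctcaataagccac
Oat, chr7:132576399-132576648, minus strand: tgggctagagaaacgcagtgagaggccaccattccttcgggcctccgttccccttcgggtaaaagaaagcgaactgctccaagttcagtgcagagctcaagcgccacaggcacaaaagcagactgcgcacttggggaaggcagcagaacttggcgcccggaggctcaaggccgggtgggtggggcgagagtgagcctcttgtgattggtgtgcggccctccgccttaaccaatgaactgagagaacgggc
The Ldha stretch holds 5 matches, and 4 of them lie in 2 copies of the palindrome CACGTG, which carries the core on both strands and is an E-box, found in 7.15% of all windows described next. Slc16a1 holds 1 such palindrome, Hk2 holds 2 single matches, and Oat has none in these 250 bases but 1 in the 50 bases after the start. The stretch before another RefSeq start site of Ldha, chr7:46846832-46847081, has no match. In GENCODE M21, which also gives the gene positions below on GRCm38, the Ldha stretch is intronic, lying inside the gene (chr7:46841475-46855627) but in no exon of it, while the Slc16a1, Hk2 and Oat stretches lie outside their own genes. RefSeq promoter windows of 300 bases, the last 50 of them after the start, were at hand for 15 start sites of 9 members, and Maf was not among them. ACGTG on either strand was found in 7 of the 15 windows, from 6 genes, against 19.6% of all 32851 windows and 29.0% of the 8701 windows with at least 20 CpG dinucleotides. The Lmo4 windows with a match overlap and share the same ACGTG, so the count of windows holds that match more than once. The member windows had a median of 22 CpG and the windows of all genes a median of 7, and ACGTG itself contains a CpG. A match describes these letters and is not a binding site.

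Ldha (ENSMUSG00000063229, chr7:46841475-46855627, plus strand), the A subunit of lactate dehydrogenase, was nearly absent from beta-like cells and abundant in the non-endocrine classes. Beta-like cells held 18 and 12 Ldha UMIs in all, a level of 0.874 (0.518 to 1.38) and 0.675 (0.349 to 1.18). Levels were 316 (287 to 348) and 319 (291 to 348) in endothelial-like cells and 255 (235 to 276) and 184 (159 to 211) in immune-like cells. The level in beta-like cells was thus 362-fold and 472-fold below that in endothelial-like cells, and 292-fold and 272-fold below that in immune-like cells. It came to 0.276% and 0.212% of the endothelial level, above the 0.0653% and 0.0861% at which the summed endothelial markers stood. It came to 0.343% and 0.368% of the immune level, below the 0.386% of the summed immune markers in the virgin and above their 0.220% in the multipara library, and within the range of the single immune markers. Each of these comparisons takes 1 class alone. Ldha was abundant in several classes, whose carry-over would add up, and whether their sum reaches the beta-like level was not tested. Of the Ldha UMIs 61.1% and 33.3% were in the 1.81% and 2.02% of beta-like cells with at least 2 markers of another class.

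Endocrine classes were not alike in Ldha. Delta-like cells stood at 10.5 (7.04 to 15.1) and 10.8 (6.90 to 16.04), which was 12.03-fold and 15.97-fold above beta-like cells, and their intervals did not overlap those of beta-like cells. Acinar markers moved with the class, at a summed level of 226 and 237 in delta-like against 5.15 and 6.41 in beta-like cells, and their part in the values of Ldha and of Acot7 was not tested. Alpha-like cells were also low, at 1.98 (1.23 to 3.03) and 0.569 (0.155 to 1.46). The log2 ratio of beta-like over alpha-like cells was -1.18 (-2.17 to -0.20) in the virgin and 0.25 (-1.48 to 2.34) in the multipara library, and the virgin value became 0.41 when each cell was given equal weight. An Ldha UMI was found in 73.9% and 73.4% of endothelial-like cells but in 0.604% and 0.631% of beta-like cells, which were the deeper cells, with medians of 11682 and 12186 against 4284 and 4994 non-hormone UMIs.

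Slc16a1 (ENSMUSG00000032902, chr3:104638668-104658462, plus strand) encodes the monocarboxylate transporter MCT1, which carries pyruvate and lactate across the cell membrane. A single UMI was seen in the beta-like cells of each library, a level of 0.0485 (0.00123 to 0.270) and 0.0562 (0.00142 to 0.313). The 7 and 9 UMIs of alpha-like cells gave 0.660 (0.265 to 1.36) and 1.28 (0.585 to 2.43), and the 14 and 10 of endothelial-like cells gave 10.3 (5.65 to 17.4) and 6.44 (3.09 to 11.8). Slc16a1 was a scarce transcript in all 6 classes, with 11.4 and 8.34 in immune-like cells and 1 UMI in the delta-like cells of each library. Even so, the log2 ratio of beta-like over endothelial-like cells was -7.74 (-13.14 to -5.02) and -6.84 (-12.28 to -4.03), and over alpha-like cells -3.76 (-9.26 to -0.80) and -4.51 (-9.96 to -1.66).

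Hk1 and Hk2 encode hexokinases of high glucose affinity, which would phosphorylate glucose even when little of it is present. Hk1 (ENSMUSG00000037012, chr10:62268855-62379908, minus strand) was present in alpha-like cells at 14.7 (12.49 to 17.2) and 13.5 (10.9 to 16.5) and in endothelial-like cells at 72.4 (58.8 to 88.2) and 61.2 (49.5 to 74.8). In beta-like cells it was at 0.437 (0.200 to 0.829) and 0.225 (0.0613 to 0.576), from 9 and 4 UMIs. Beta-like cells were thus 33.7-fold and 60.04-fold below alpha-like cells, and 166-fold and 272-fold below endothelial-like cells. Immune-like cells, at 13.9 (9.58 to 19.5) and 8.34 (3.81 to 15.8), were 31.9-fold and 37.1-fold above beta-like cells. Delta-like cells shared the low level, with 1 and 2 Hk1 UMIs and levels of 0.362 (0.00917 to 2.02) and 0.898 (0.109 to 3.24).

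Hk2 (ENSMUSG00000000628, chr6:82725025-82774454, minus strand), which is inducible and typical of muscle and activated cells, was not a beta-specific absence. The beta-like cells of each library held 1 UMI, and delta-like and endothelial-like cells held none, which allows a level of up to 1.09 and 1.35 in delta-like and 2.22 and 1.93 in endothelial-like cells on the floor of 3 counts. Its level was 19.8 (14.6 to 26.4) and 46.3 (34.4 to 61.1) in immune-like cells. Within that class, macrophage-like cells had 49.1 (31.4 to 73.0) and 59.3 (42.4 to 80.8). Mesenchymal-like cells had 72.9 and 15.3, and alpha-like cells 3 and 2 UMIs. The contrast with beta-like cells therefore exists for immune-like and mesenchymal-like cells and cannot be formed against delta-like or endothelial-like cells.

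**Figure D1:**
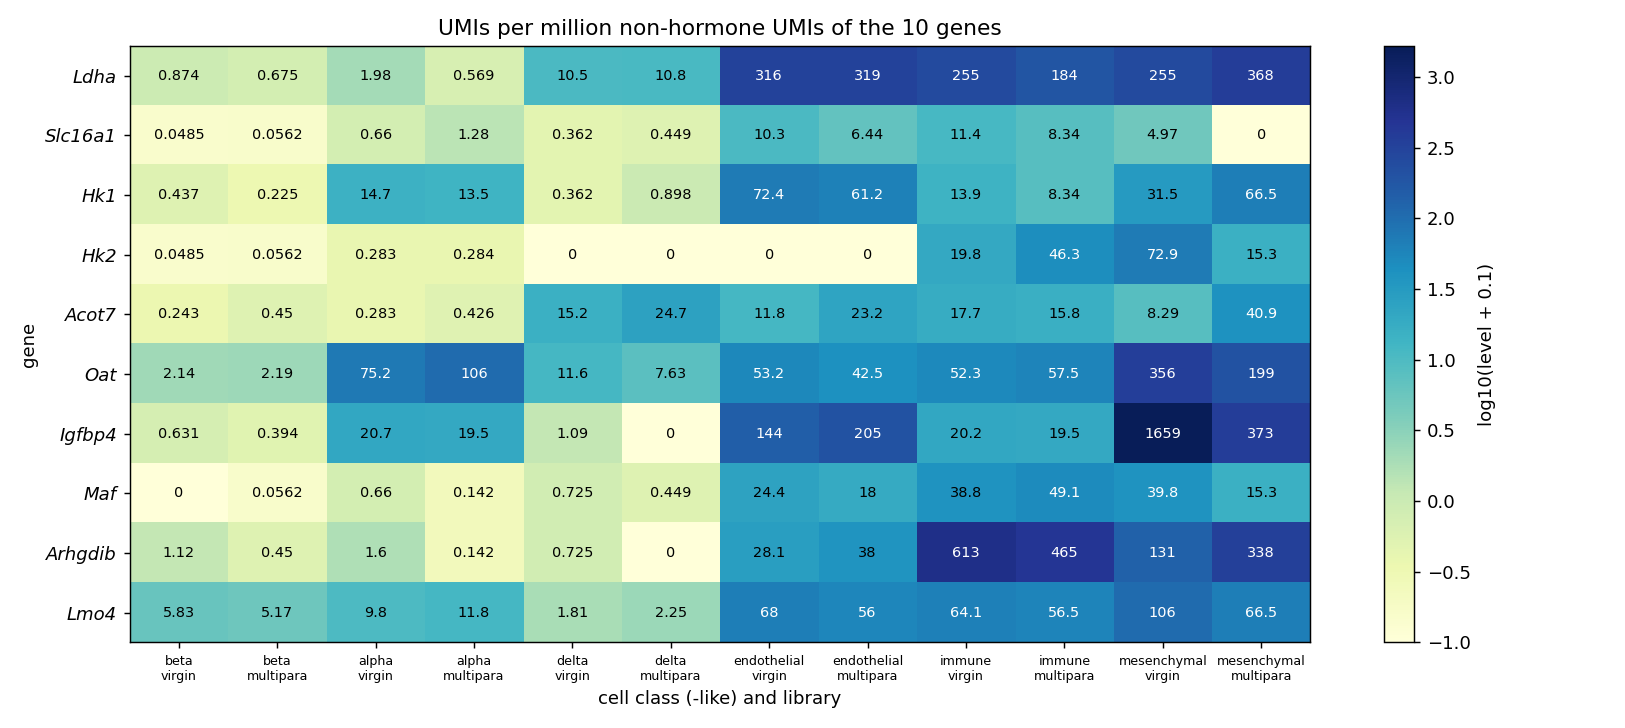
Levels of the 10 genes (rows) in 6 cell classes of both libraries (columns), in UMIs per 1000000 non-hormone UMIs, with colour on the scale of log10(level + 0.1). Beta-like columns are pale, with Lmo4 and Oat the darkest rows there. Oat, Hk1 and Igfbp4 darken in alpha-like cells and Acot7 and Ldha in delta-like cells. Lmo4 is paler in delta-like than in beta-like cells. Hk2 and Arhgdib are also paler there, but with at most 2 UMIs in delta-like cells this gives no direction. Rows should be read along and not against each other.

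Acot7 (ENSMUSG00000028937, chr4:152178134-152271855, plus strand), an acyl-CoA thioesterase that releases fatty acids from their coenzyme A esters, separated delta-like cells from the other endocrine classes. Its level was 15.2 (11.0 to 20.6) and 24.7 (18.6 to 32.1) in delta-like cells. Beta-like cells stood at 0.243 (0.0788 to 0.566) and 0.450 (0.194 to 0.886) and alpha-like cells at 0.283 (0.0583 to 0.826) and 0.426 (0.0879 to 1.246). Beta-like cells were 62.7-fold and 54.9-fold below delta-like cells and did not differ from alpha-like cells beyond counting error, with log2 ratios of -0.22 (-2.58 to 2.47) and 0.08 (-1.98 to 2.63). The few Acot7 UMIs of beta-like cells, 5 and 8, came to 1.59% and 1.82% of the delta-like level, close to the 1.71% and 1.03% of Sst. Endothelial-like cells, at 11.8 and 23.2, and immune-like cells, at 17.7 and 15.8, lay near the delta-like level. Of the Acot7 UMIs in beta-like cells 80.0% and 62.5% were in the 7.63% and 7.19% of beta-like cells in which another islet hormone exceeded 1% of UMIs.

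Oat (ENSMUSG00000030934, chr7:132557478-132576398, minus strand) encodes ornithine aminotransferase, the mitochondrial enzyme that links ornithine to glutamate and proline, and it set alpha-like cells apart from the other endocrine classes. There it stood at 75.2 (70.1 to 80.6) and 106 (98.4 to 114), from 798 and 745 UMIs. The beta-like level was 2.14 (1.55 to 2.87) and 2.19 (1.56 to 3.00), which was 35.2-fold and 48.3-fold lower. That remainder was 2.84% and 2.07% of the alpha-like level, above the 0.941% and 0.764% of Gcg itself. Delta-like cells lay between, at 11.6 (7.93 to 16.4) and 7.63 (4.45 to 12.2), and endothelial-like and immune-like cells at 42.5 to 57.5. An Oat UMI was found in 44.3% and 54.0% of alpha-like but 2.20% and 2.02% of beta-like cells.

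Igfbp4 (ENSMUSG00000017493, chr11:99041244-99054392, plus strand), a secreted binding protein of insulin-like growth factors, was also higher in alpha-like than in beta-like cells. Alpha-like cells had 20.7 (18.1 to 23.7) and 19.5 (16.4 to 23.0), and beta-like cells 0.631 (0.336 to 1.08) and 0.394 (0.158 to 0.811), which was 32.9-fold and 49.5-fold lower. Of the 13 and 7 UMIs in beta-like cells, 38.5% and 71.4% were in cells with another islet hormone above 1%. Delta-like cells had 3 UMIs and none. Endothelial-like cells had 144 (125 to 166) and 205 (184 to 229), and beta-like cells were 228-fold and 522-fold below them. Immune-like cells had 20.2 (14.9 to 26.8) and 19.5 (12.05 to 29.8), and T-like cells among them 80.3 and 78.8. In mesenchymal-like cells the level was 1659 (1558 to 1765) in the virgin and 373 (293 to 469) in the multipara library. These 2 sets of mesenchymal-like cells also differed in Cxcl12, at 1916 and 128, and whether they hold the same mixture of cells was not tested.

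Maf (ENSMUSG00000055435, chr8:115682942-115707794, minus strand) encodes c-Maf, a large Maf transcription factor, in place of which mature beta cells use MafA. No UMI was seen in virgin beta-like cells and 1 in multipara beta-like cells, so the virgin level was at most 0.146 on the floor of 3 counts. Endothelial-like cells had 24.4 (16.8 to 34.2) and 18.0 (11.98 to 26.1), immune-like cells 38.8 (31.3 to 47.6) and 49.1 (36.8 to 64.3), and T-like cells among them 112 (83.1 to 149) and 164 (108 to 238). In the virgin library the level in beta-like cells was at least 167-fold lower than in endothelial-like and at least 266-fold lower than in immune-like cells. The multipara log2 ratios were -8.33 (-13.68 to -5.73) and -9.77 (-15.10 to -7.23). Alpha-like and delta-like cells were also low, with 7 and 1 and with 2 and 1 UMIs.

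Arhgdib (ENSMUSG00000030220, chr6:136923655-136941899, minus strand) encodes a GDP dissociation inhibitor of blood cells, and of the 6 classes it was highest in immune-like cells. Immune-like cells had 613 (581 to 645) and 465 (425 to 508), with an Arhgdib UMI in 88.1% and 83.8% of cells. Beta-like cells had 1.12 (0.708 to 1.68) and 0.450 (0.194 to 0.886), which was 549-fold and 1034-fold lower. This was 0.182% and 0.0967% of the immune level, below the 0.386% and 0.220% of the summed immune markers. Of the 23 and 8 UMIs, 73.9% and 87.5% were in those beta-like cells with at least 2 markers of another class. Alpha-like cells, at 1.602 (0.933 to 2.57) and 0.142 (0.00360 to 0.792), and delta-like cells, with 2 UMIs and none, were also low. Endothelial-like cells had 28.1 (19.9 to 38.5) and 38.0 (28.9 to 49.0), which was 25.1-fold and 84.5-fold above beta-like cells.

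Lmo4 (ENSMUSG00000028266, chr3:144188530-144205220, minus strand), a LIM-only adaptor of transcription factor complexes, showed the smallest fold against endothelial-like and immune-like cells among the members compared. Its level in beta-like cells was 5.83 (4.83 to 6.97) and 5.17 (4.17 to 6.34), from 120 and 92 UMIs. Alpha-like cells were 1.68-fold and 2.28-fold higher, at 9.80 (8.01 to 11.9) and 11.8 (9.40 to 14.6). Delta-like cells were lower than beta-like cells, with 5 UMIs in each library and levels of 1.81 (0.588 to 4.23) and 2.25 (0.729 to 5.24), and the log2 ratio of beta-like over delta-like cells was 1.69 (0.42 to 3.33) and 1.204 (-0.07 to 2.86). Against endothelial-like cells, at 68.0 and 56.0, beta-like cells were 11.7-fold and 10.8-fold lower. The remainder was 8.57% and 9.23% of the endothelial level and 9.09% and 9.15% of the immune level. Of the Lmo4 UMIs 5% and 6.52% were in the 1.81% and 2.02% of beta-like cells with at least 2 markers of another class. The source of the Lmo4 UMIs in beta-like cells was not tested.

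Across the list, a gene was called lower in beta-like cells when it was at least 2-fold lower in both libraries and reached a mean level of 5 over the compared classes. Against alpha-like cells 4 members reached that level and 3 were called (Hk1, Oat and Igfbp4), where 4.96% of all 10169 genes compared were called. Ldha, Slc16a1, Hk2, Acot7, Maf and Arhgdib were too scarce in both classes, and Lmo4 passed 2-fold in the multipara library only. Against delta-like cells 3 members reached the level and were called (Ldha, Acot7 and Oat), at a background of 8.24%. Members that reach this level through the other class alone had to differ, so these counts describe where each gene is expressed.

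For the non-endocrine classes nearly the whole list qualified. Against endothelial-like cells 8 members were called of 8 that reached the level, with Slc16a1 and Hk2 below it, at a background of 19.4%. Against immune-like cells 9 were called of 9, with Slc16a1 below it, at a background of 13.4%, and against mesenchymal-like cells 9 of 9, at a background of 16.8%. Here too, members that reached the level through the other class alone had to differ. The counts therefore describe where each gene is expressed, and their excess over the background was largely set by that filter. Over all genes compared the median log2 ratio was 0.22 and 0.22 against alpha-like, -0.02 and -0.02 against delta-like, 0.30 and 0.33 against endothelial-like and 0.90 and 1.08 against immune-like cells. The median over the members was taken over those with a UMI in the other class, with Maf in virgin beta-like cells set at its floor. It was -2.36 and -1.84 over all 10 against alpha-like, -2.31 and -2.997 over 9 and 7 against delta-like, -7.37 and -6.84 over 9 against endothelial-like and -7.03 and -6.42 over all 10 against immune-like cells. With counts of 0 in the other class also set at the floor, it was -2.38 and -2.50 against delta-like cells. Against endothelial-like cells it was then -6.49 and -6.62. The medians over all genes use that floor and only genes at the minimum level, so the 2 kinds of median are not fully alike. When all UMIs served as the denominator, the medians over all genes moved to -0.40 and -0.39, -0.89 and -0.90, -1.05 and -1.06, and -0.45 and -0.30, and no called member changed direction. Fewer members then reached the minimum level, and the calls were 2 of 2 against alpha-like and 1 of 1 against delta-like cells.

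**Figure D2:**
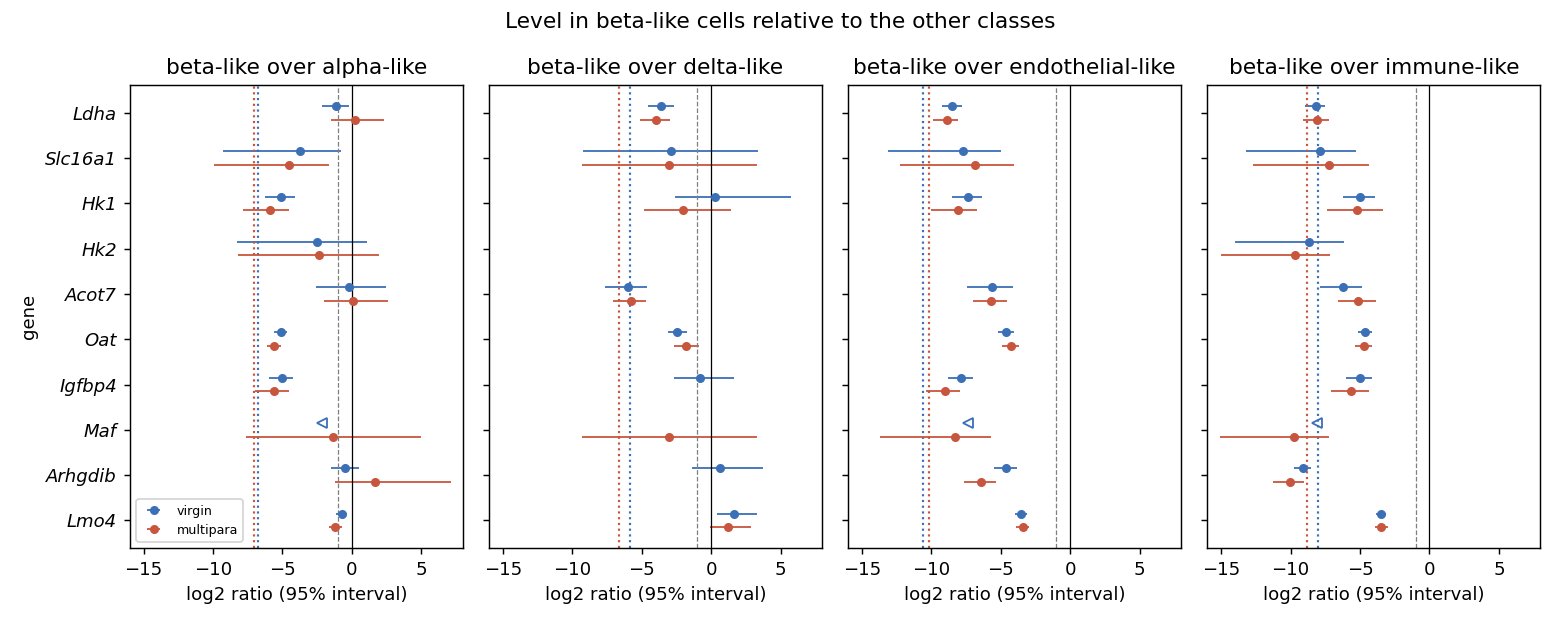
Log2 ratio of the level in beta-like cells over that in 4 other classes, with 95% counting intervals, for the virgin (blue) and multipara (red) libraries. Open triangles are bounds for Maf, which had 0 UMIs in virgin beta-like cells, genes with 0 UMIs in the other class are left out, dashed grey lines mark 2-fold lower, and dotted lines mark the ratio of the other class's own markers in beta-like cells, below which Arhgdib, Hk2 and Maf lie against immune-like cells in both libraries and Ldha in the virgin library, and near which Acot7 lies against delta-like cells.

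Summed over the 10 genes, beta-like cells had 234 and 173 UMIs, a level of 11.4 (9.95 to 12.9) and 9.73 (8.33 to 11.3). The sum was 126 (119 to 133) and 154 (144 to 163) in alpha-like, 42.4 (35.1 to 50.8) and 47.1 (38.6 to 57.1) in delta-like, 728 (684 to 775) and 770 (727 to 815) in endothelial-like and 1106 (1064 to 1149) and 910 (854 to 969) in immune-like cells. Beta-like cells were thus lowest, followed by delta-like and alpha-like cells, and no intervals of these classes overlapped within a library. A UMI of any member occurred in 9.39% (8.09 to 10.8) of virgin and 8.26% (6.96 to 9.73) of multipara beta-like cells. After each cell was thinned to 2000 non-hormone UMIs this share was 2.45% (1.77 to 3.30) and 1.76% (1.14 to 2.58), with 110 and 163 shallower beta-like cells left out. The thinned share was 19.3% and 24.3% in alpha-like, 5.16% and 6.69% in delta-like, 73.8% and 73.8% in endothelial-like and 85.8% and 78.2% in immune-like cells. At that depth none of the 1711 virgin and 2 of the 1422 multipara beta-like cells had an Ldha UMI, against 48.9% and 49.0% of endothelial-like cells.

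Among cells gated as beta-like, those with less insulin RNA had a higher summed level of the members. The summed level was 67.0 (45.2 to 95.6) and 41.5 (17.9 to 81.7) in cells with 20% to 30% of their UMIs from insulin, and 28.8 (18.8 to 42.3) and 41.9 (24.4 to 67.1) at 30% to 40%. It was 11.9 (8.07 to 16.9) and 21.0 (13.9 to 30.3) at 40% to 50%, 9.25 (7.52 to 11.3) and 8.78 (7.02 to 10.8) at 50% to 60%, and 8.08 (5.96 to 10.7) and 5.62 (3.89 to 7.85) above 60%. The lowest bin held 59 and 70 cells with medians of 2057 and 580 non-hormone UMIs, against 11978.5 and 12604.5 in the highest. Its sums rest on 30 and 8 UMIs. Lmo4 alone stood at 5.75, 6.54 and 3.70 in the upper 3 bins of the virgin library and 6.74, 5.82 and 3.47 in those of the multipara library. Just inside the limit, at 20% to 25%, the sum was 76.0 and 78.2 in 22 and 33 cells, and just outside, at 15% to 20%, it was 107 and 70.7 in 18 and 42 cells. Depth moved with the insulin share. At 20% to 30% and 30% to 40% lay 10 and 4 of the 18 virgin Ldha UMIs and 6 and 4 of the 23 virgin Arhgdib UMIs. In the multipara library both genes had 1 UMI in each of these bins. Beta-like cells with at least 2 markers of another class held 61.1% and 33.3% of the Ldha UMIs and 73.9% and 87.5% of the Arhgdib UMIs. The parts of depth and of such cells in this trend were not tested.

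**Figure D3:**
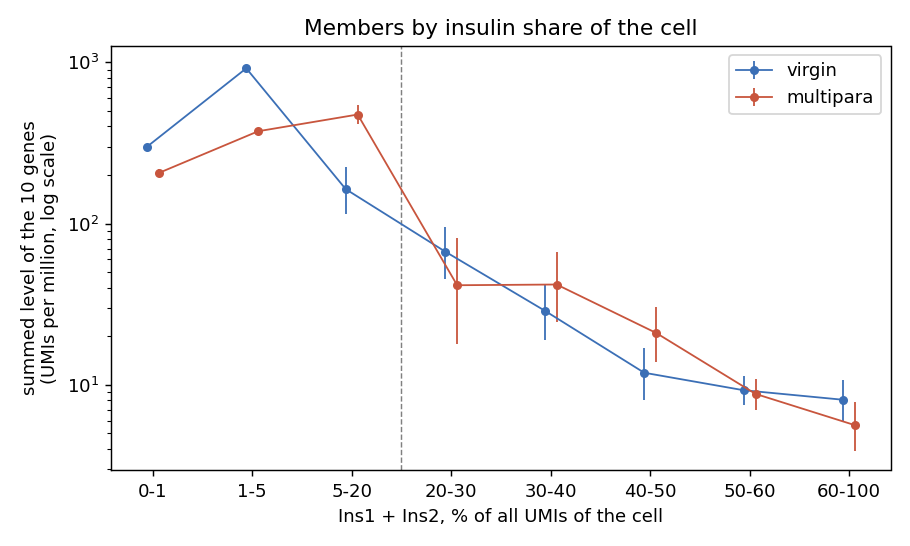
Summed level of the 10 genes (log scale, UMIs per 1000000 non-hormone UMIs, 95% counting intervals) in all kept cells binned by the share of their UMIs from Ins1 and Ins2. The dashed line is the 20% limit of beta-like cells, and to its right the level goes from 67.0 and 41.5 in the lowest bin to 8.08 and 5.62 in the highest.

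Several relatives of the members were present in beta-like cells. Ldhb, the other main lactate dehydrogenase subunit, was higher in beta-like cells (26.8 and 22.9) than in alpha-like cells (10.6 and 10.8), and Ldhd, which acts on D-lactate, stood at 11.4 and 11.1. Among monocarboxylate carriers, Slc16a7 was at 36.6 and 40.4 in delta-like but 1.31 and 0.337 in beta-like cells, and Slc16a3 was at 17.0 and 18.7 in endothelial-like cells with 2 UMIs and none in beta-like cells. Bsg, the chaperone of the carriers encoded by Slc16a1 and Slc16a3, was present at 813 and 690 in beta-like cells, where both genes and Slc16a7 were scarce.

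Among the hexokinases, Hk3 was at 4.64 and 8.34 in immune-like cells. Of the thioesterases, Acot13 was at 119 and 143 and Acot11 at 14.1 and 15.7 in beta-like cells, against 69.3 and 60.8 and against 0.754 and 0.711 in alpha-like cells. Acot1, like Acot7, was higher in delta-like cells, at 16.7 and 18.0, than in beta-like cells, at 0.825 and 0.169. Unlike Acot7, it was also 9.48-fold and 32.0-fold higher in alpha-like than in beta-like cells. It had only 4 and 1 UMIs in endothelial-like and none in immune-like cells.

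The genes around Oat differed by step. Aldh18a1 and Pycr1, which act in making proline from glutamate, stood at 44.8 and 53.9 and at 24.9 and 47.9 in beta-like cells, and both were lower in alpha-like and delta-like cells. Arg1, which makes ornithine from arginine, was at 616 and 660 in delta-like, 92.4 and 77.3 in alpha-like and 17.7 and 7.70 in beta-like cells. Of the large Maf factors, Mafa was high in beta-like cells, as given above, where Maf was at 0 and 0.0562. Of the GDP dissociation inhibitors, Arhgdia was at 174 and 174 and Arhgdig at 39.3 and 32.1 in beta-like cells. Of the LIM-only genes, Lmo1 was at 11.2 and 13.1 in beta-like, Lmo3 at 32.2 and 35.5 in delta-like, and Lmo2 at 191 and 178 in endothelial-like cells.

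**Figure D4:**
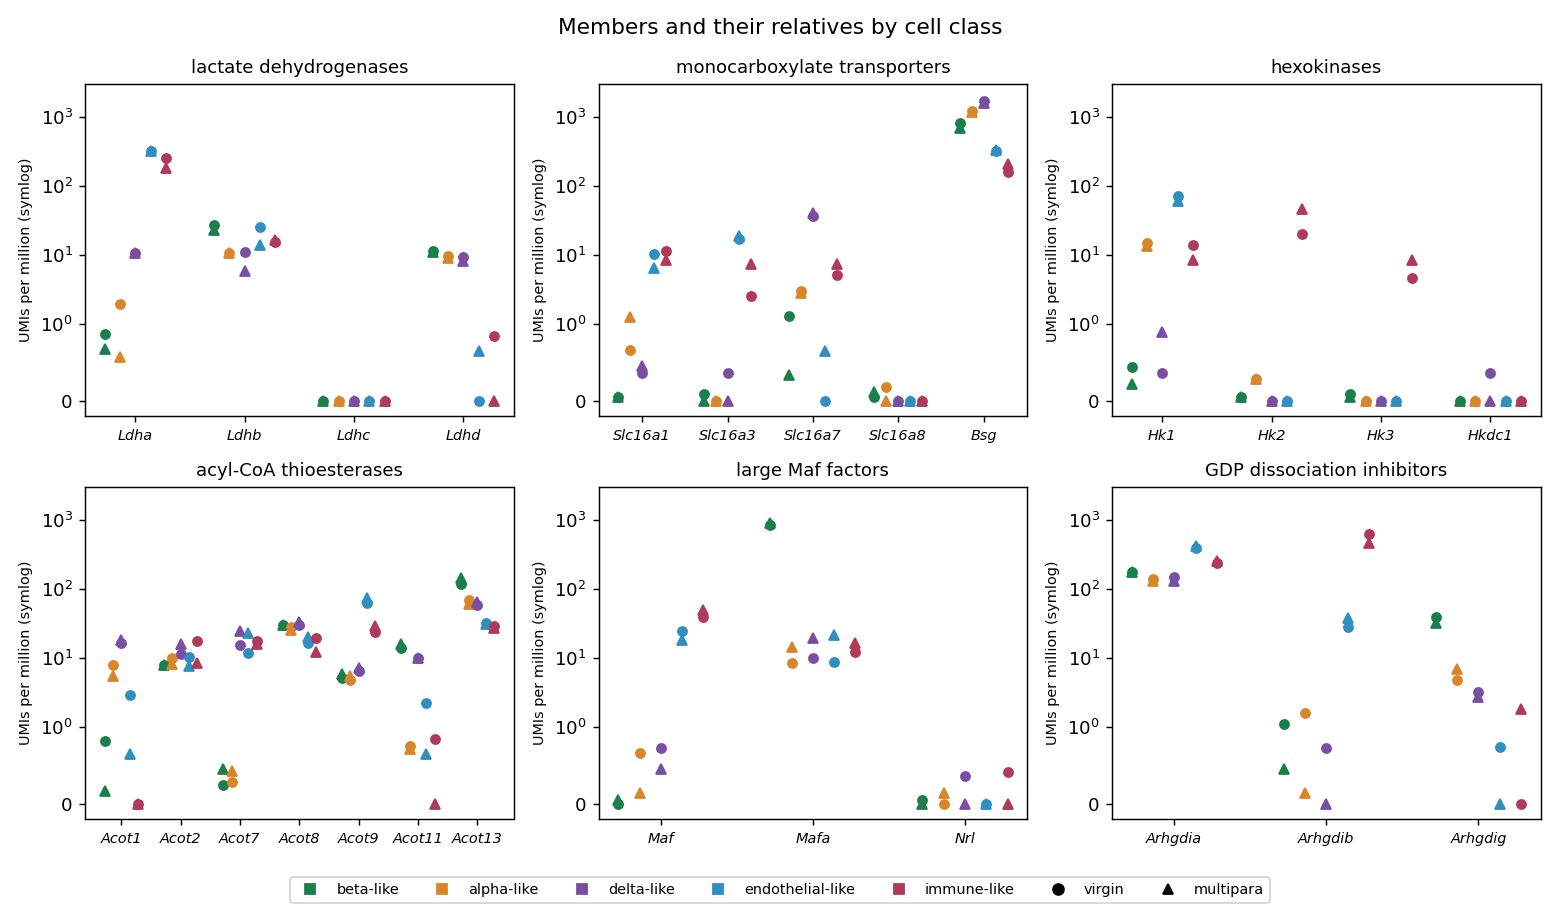
Levels of members and relatives in 5 classes (colours) and both libraries (circles virgin, triangles multipara), in UMIs per 1000000 non-hormone UMIs on an axis that is linear below 1 and logarithmic above. Beta-like cells (green) are near 0 for Ldha, Slc16a1, Hk1, Hk2, Acot7, Maf and Arhgdib and well above 0 for Ldhb, Acot13, Mafa and Arhgdia, of which Arhgdia is higher still in endothelial-like and immune-like cells.

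A further 13 genes known from other work as disallowed in beta cells were read the same way. Against alpha-like cells 1 reached the minimum level, Cxcl12, and it was not called. Its 247 and 1 UMIs in alpha-like cells put beta-like cells 14.5-fold lower in the virgin and 9.89-fold higher in the multipara library. Against delta-like cells both that reached the level, Zfp36l1 and Tst, were called lower. All 11 that reached it against endothelial-like cells and all 7 against immune-like cells were called lower, beside 19.4% and 13.4% of all genes, and none was called higher in beta-like cells against any class. Below the minimum level, genes went both ways against alpha-like cells. Cat was 18.0-fold and 15.4-fold higher in beta-like cells, from 35 and 39 UMIs against 1 and 1, and Tst was 4.67-fold and 5.24-fold lower. These genes too reached the level mainly through the other class, so a lower value in beta-like cells was largely set by that filter. Rest, the repressor of neuronal genes, stood at 0.340 and 0.450 in beta-like and 70.9 and 74.1 in endothelial-like cells. Zfp36l1, an RNA-binding protein that destabilises transcripts, stood at 1.84 and 1.24 against 375 and 359.

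Between the libraries, beta-like cells gave no member that differed by more than 1.5-fold at a mean level of 5 or more, where 3.01% of 10065 genes did. Lmo4 was the only member at that level, with a log2 ratio of multipara over virgin of -0.17 (-0.58 to 0.23). For Ldha the log2 ratio was -0.37 (-1.56 to 0.76), for Oat 0.04 (-0.62 to 0.69), for Hk1 -0.96 (-3.11 to 0.88), for Igfbp4 -0.68 (-2.25 to 0.75) and for Acot7 0.89 (-0.90 to 2.85). These intervals include 0 and reach beyond a 1.5-fold difference, so at this depth a change of that size in either direction was not detectable for the scarce members. Arhgdib, with 23 and 8 UMIs, was at -1.31 (-2.68 to -0.10). The immune markers in beta-like cells differed the same way, at summed levels of 18.3 and 10.7. Their part in the Arhgdib value was not tested. Slc16a1 and Hk2 had 1 UMI in each library, and Maf none and 1. The summed level of 11.4 and 9.73 had overlapping intervals.

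Alpha-like cells gave 4 members at the minimum level and none beyond 1.5-fold, at a background of 2.99%. Oat was nearest, with 75.2 and 106, a log2 ratio of 0.49 (0.35 to 0.64) and a range of 0.40 to 0.52 over 14 other settings. Hk1 was at -0.12 (-0.51 to 0.25) and Igfbp4 at -0.09 (-0.41 to 0.22). Over 14 other settings Hk1 ran from -0.20 to 0.20, but Igfbp4 from -0.17 to 1.18, which is past 1.5-fold. Ldha, at 21 and 4 UMIs, and Arhgdib, at 17 and 1, were lower in multipara alpha-like cells, with log2 ratios of -1.80 (-3.80 to -0.23) and -3.49 (-8.88 to -0.82), but both were below the minimum level. Erythroid genes summed to 2.83 and 979 in these cells, and 2 multipara cells had at least 0.1% of their UMIs from them.

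In delta-like cells 2 of 3 members passed 1.5-fold, at a background of 8.29%. Acot7 was higher in the multipara library, from 42 and 55 UMIs, at a log2 ratio of 0.70 (0.09 to 1.31), while Oat was at -0.60 (-1.54 to 0.29). In endothelial-like cells 2 of 9 did so, at a background of 14.8%. Acot7 was again higher, with 16 and 36 UMIs and 0.97 (0.09 to 1.92), and Slc16a1 was at -0.68 (-2.02 to 0.59). Igfbp4 was at 0.51 (0.25 to 0.78) and Ldha at 0.01 (-0.18 to 0.20). Erythroid genes summed to 34.7 in virgin and 5912 in multipara endothelial-like cells, and their part in these values was not tested beyond leaving out the cells that carried them, those with at least 0.1% of their UMIs from erythroid genes, a setting chosen after seeing the data, after which the counts of members in all 5 classes were the same.

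Immune-like cells gave 2 of 10 members beyond 1.5-fold, Hk2 at 1.23 (0.62 to 1.83) and Hk1 at -0.74 (-1.99 to 0.36), but the background was 38%. The mixture of immune cells differed between the libraries, with 69 and 98 macrophage-like, 124 and 41 T-like and 167 and 41 B-like cells. Within macrophage-like cells Hk2 was at 0.27 (-0.49 to 1.07), and within T-like cells, from 9 and 10 UMIs, at 1.56 (0.10 to 3.03). Arhgdib was at -0.40 over all immune-like cells, with 354 and 343 within macrophage-like and 899 and 855 within T-like cells.

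**Figure D5:**
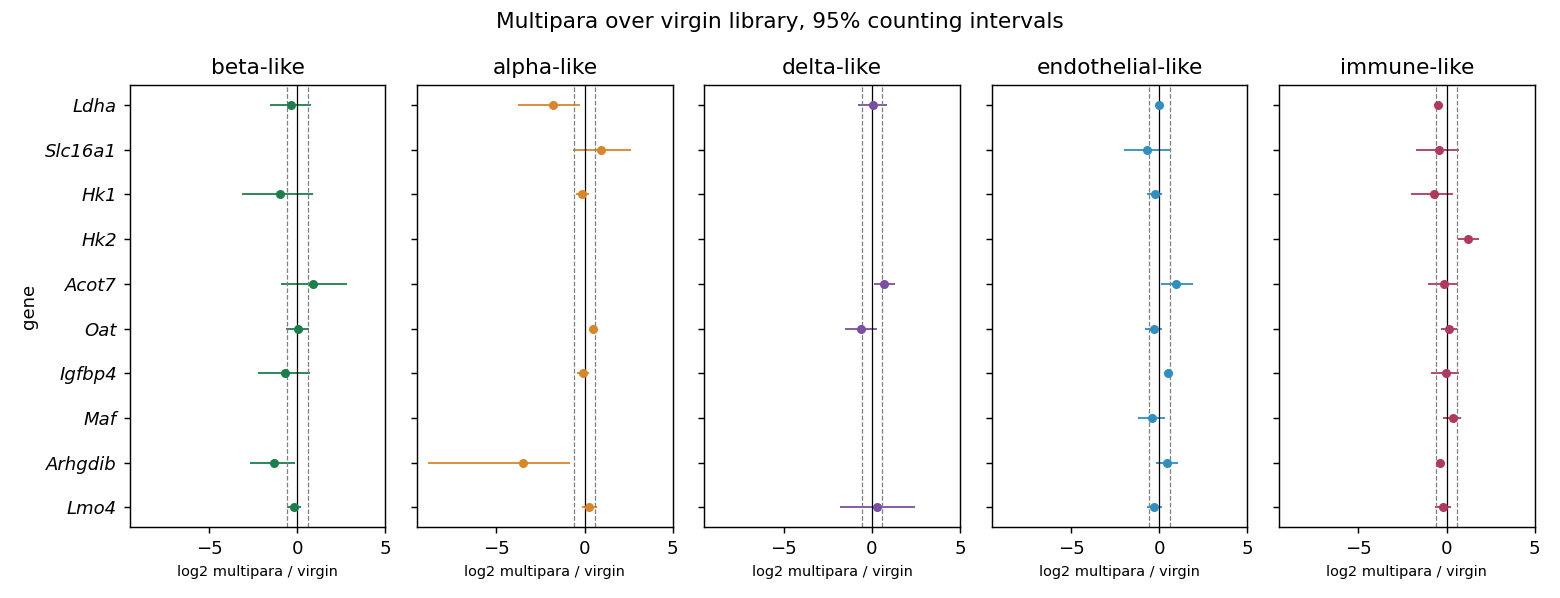
Log2 ratio of multipara over virgin levels with 95% counting intervals, for members with at least 10 UMIs over both libraries and at least 1 in each, in 5 classes. Dashed lines mark 1.5-fold, and in beta-like cells every interval but that of Arhgdib includes 0.

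Over 16 points, each a class in a library, the genes whose levels ran most like those of the members were found by Pearson correlation of log2(level + 5) among 6655 genes. Zfp36l1 was most like Ldha (r = 0.976), Gpsm3 most like Arhgdib (r = 0.971), Ifngr1 most like Maf (r = 0.949), Emp3 most like Lmo4 (r = 0.948) and Nasp most like Slc16a1 (r = 0.942). The value for Slc16a1 rests on few UMIs, such as 1 and 1 in delta-like, 0 and 6 in macrophage-like and 15 and 0 in B-like cells. For Oat the nearest gene, Epb41l2, reached only 0.769, the lowest of the 10. The points share 2 libraries, and the values describe the likeness of patterns over classes.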

How the data were processed

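Islets were rested in serum-containing medium, dissociated and sequenced as 1 library for each group. The authors aligned the reads to GRCm38 (mm10) with Cell Ranger 3.1.0 and used Seurat 3.0, per the submitters' processing notes, and deposited raw UMI counts for each gene and barcode with no normalization. From these, 5463 and 5075 barcodes (94853806 and 82503776 UMIs in the virgin and multipara libraries) were read. Barcodes with 200 to 6000 genes, fewer than 60000 UMIs and under 10% mitochondrial UMIs were kept, which left 4391 and 3374. Scrublet (scanpy 1.11.5) removed 79 and 18 doublets (1.80% and 0.533%), and so low a multipara share leaves the call there in doubt.

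Cell names were rebuilt from expression. Alpha-like and delta-like cells also had less than 10% insulin UMIs, the non-endocrine classes less than 20% and fewer than 2 markers of another class, and 239 and 259 cells fell in no class. Counts were summed over cells and divided by UMIs outside 7 hormone genes (Ins1, Ins2, Iapp, Gcg, Sst, Ppy and Pyy). Levels carry exact Poisson intervals, shares exact Clopper-Pearson intervals and ratios exact conditional binomial intervals, all at 95% and for counting error only. With 1 library per group no test across samples could be made and no p-value is given. Cells are not replicates. The named genes were all 10 members, their families and 13 other disallowed genes, and the gene most like each member. Members and lists were chosen with earlier results of these data known. Levels below a mean of 5 were not called. Some genes of the families are not reported here. The calculation was tested on simulated counts, and 18 alternative settings were fixed and 1 was added after seeing the data. Python 3.11.15, numpy 2.4.6, pandas 2.3.3, scipy 1.17.1 and matplotlib 3.10.9 were used. Gene positions are from GENCODE M21 and upstream sequences from RefSeq, both on GRCm38.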

Additional observations from a re-analysis of the deposited data

Results flagged for a closer look

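Cells that met no class gate were used in no comparison, and they held the 10 genes well above the level in beta-like cells. Their summed level was 257 in the 239 virgin cells and 189 in the 259 multipara cells, in UMIs per 1000000 non-hormone UMIs, against 11.4 and 9.73 in beta-like cells. They include cells rich in Ppy and, in the multipara library, in erythroid genes, and the rest were not named.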

How the results depend on the processing

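No paired analysis was possible because each group is 1 library. Of 155 alternative values of the 11 main results, 133 stayed within the limits and 22 moved, and of 1348 alternative values of 115 single results 1238 stayed, 109 moved and 1 reversed. The log2 ratio of Ldha in virgin beta-like over alpha-like cells went from -1.18 to 0.41 when each cell was weighted equally. The count of members called lower in beta-like than alpha-like cells went from 3 to 6 with no minimum level. That against delta-like cells went from 3 to 6 with no minimum level, of which Hk2 had no UMI in delta-like cells and Slc16a1 and Maf at most 2, and to 1 with all UMIs in the denominator, when scaled by TMM or by median-of-ratios size factors, where 1 member still reached the minimum level. Between libraries, the counts with no minimum level were 5 in beta-like, 5 in alpha-like and 5 in delta-like cells, against 0, 0 and 2, and each of these includes members with 3 or fewer UMIs. Thinning to 2000 UMIs gave 1 in beta-like, 1 in alpha-like and 5 in immune-like cells, against 0, 0 and 2. A looser fold limit between libraries gave 1 in alpha-like, 6 in endothelial-like and 6 in immune-like cells, against 0, 2 and 2. The delta-like count was 1 when scaled by TMM or by median-of-ratios size factors, with equal cell weights, with doublets kept and with alpha-like and delta-like gates at 10%, and the immune-like count was 1 with median-of-ratios size factors. The share of beta-like cells with any member was 1.07% and 0.746% after thinning to 1000 UMIs, against 2.45% and 1.76%. Leaving out cells with erythroid UMIs, chosen after seeing the data, moved no count. For these alternative counts the share of all genes called under the same setting is not given, so they have no background. At the main limit between libraries that share was 3.01% in beta-like, 2.99% in alpha-like and 8.29% in delta-like cells. It was 14.8% in endothelial-like and 38% in immune-like cells. With 1 library per group, differences between mice, dissociations and libraries cannot be told apart from those of multiparity.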

Other observations

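Among the cells of no class, a set rich in pancreatic polypeptide had Hk1 at about the alpha-like level and little Ldha. These cells, in which Ppy made up at least 5% of UMIs and insulin under 10%, numbered 89 and 90 in the virgin and multipara libraries, and the split was chosen after seeing the data. Hk1 stood at 15.99 and 17.7, Oat at 24.0 and 22.1 and Lmo4 at 14.8 and 12.2 UMIs per 1000000 non-hormone UMIs. Ldha stood at 1.14 and 2.21, and Igfbp4, which alpha-like cells held at 20.7 and 19.5, at 2.28 and 1.11.

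The multipara cells of no class also included 37 cells with at least 1% of their UMIs from erythroid genes, and the virgin library had 0 such cells. In them Slc16a1, the transporter MCT1, reached 176 (95% counting interval 125 to 240) from 39 UMIs in 16 cells, above its level in each class described above. Hk1 reached 49.6 (24.7 to 88.7) from 11 UMIs, and Hk2 had none.

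Some relatives of members differed by over 1.5-fold between libraries in beta-like cells, and the examples were picked after their values were seen. Pycr1, which makes proline, stood at 24.9 in virgin and 47.9 in multipara beta-like cells, a log2 ratio of 0.94 (0.78 to 1.10). Arg1, at 17.7 and 7.70, and Igfbp7, at 329 and 210, were lower in the multipara library, and Igfbp5, at 11.0 and 17.2, was higher. No replicate checks these differences.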
